A study of Mus musculus with 99 samples.

Results

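The comparison described here sets the I53S line of mouse embryonic stem cells against the Parental cells it was made from, with endogenous RING1B still present in both. It used 4 of the 99 samples of the series, the 2 RNA-seq libraries of each line that had received vehicle (EtOH) in place of 4-hydroxytamoxifen (OHT) for 72 h, and 17486 autosomal genes of the 55341 gene names in the count table. Both lines carried ROSA26::creERT2, RING1A-/- and RING1B fl/fl, so no cell in the comparison had RING1A and OHT would have been needed to remove RING1B. The I53S line had in addition a stable pCAG vector for 2xFLAG-HA-tagged mouse RING1B with the I53S substitution, was grown out under puromycin and subcloned, and was picked by western blot. The transgene, the selection and the clone therefore came together, and their effects on RNA cannot be told apart here. The WT line, made the same way with unmutated RING1B, served as the second reference, and OHT-treated I53S and Parental cells (0.5 uM, 72 h) served as the same contrast in other libraries.

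RING1B, encoded by Rnf2, is the E3 ligase of Polycomb repressive complex 1 (PRC1) and places monoubiquitin on a lysine of histone H2A (H2AK119ub1). PRC1 and the H3K27 methyltransferase PRC2 occupy CpG-rich promoters of developmental genes in embryonic stem cells and keep them low. The I53S substitution lies on the RING surface that meets the ubiquitin-conjugating enzyme and takes away the ligase activity, so the question of this comparison is what the inactive protein and the history of the line did to transcription while the active enzyme was still there.

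Few autosomal genes differed. With edgeR's quasi-likelihood test, 11 autosomal genes were called higher in I53S cells, which is 0.0629% of those tested, and 7 were called lower, which is 0.0400%, a call being a log2 fold change of at least 1.5 in size with a false discovery rate (FDR) under 0.05. Of the 11 higher genes, 7 lay together in the imprinted Dlk1-Dio3 cluster of chromosome 12, and of the 7 lower genes 5 lay in the distal part of chromosome 14. The other 6 were Trim47, Anxa1, Aldh1a3 and H19, which were higher, and Dnajc5g and Peg10, which were lower. With no fold threshold 14 genes were higher (0.0801%) and 31 lower (0.177%), and at an unadjusted p under 0.05 the shares were 3.13% higher and 1.94% lower. The calls rested on 2 libraries a group: Meg3, Rtl1, Rian, Gm37899, Mirg and Zic2 stayed under the FDR threshold without any 1 of the 4 libraries, the other 12 did not, and 7 genes were called without the first I53S library. The labels do not say whether replicates were separate cultures, so p-values measure only the spread between replicate libraries. That spread was estimated over 12 libraries fitted together, which included the WT line and OHT-treated cells.

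The 4 libraries held 8967223 to 12743460 counted reads. Mitochondrial genes took 2.39% to 3.07% of them, and 7 pluripotency markers (Pou5f1, Sox2, Nanog, Esrrb, Zfp42, Klf4 and Tfcp2l1) summed to 3309 and 3991 CPM (counts scaled to library size) in Parental and to 3574 and 4213 in I53S cells. Without Tfcp2l1, which was higher in I53S cells, the other 6 summed to 2281 and 2912 CPM against 2113 and 2665 CPM. Fibroblast markers, which would show feeder cells, were low, with 3 of 11 passing the filter on low counts, a sum of at most 16.2 CPM, and Col3a1, Lum, Dcn, Postn, Fap and S100a4 at 0 counts in all 4 libraries. In bulk RNA, fewer cells of a type and less RNA per cell cannot be told apart. On the sex chromosomes, which lie outside the autosomal set, 10 further genes passed the same thresholds.

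The promoters of 4 called genes are shown because the genes differ in whether a PRC1 peak lay near any of their start sites. Trim47 (higher) and Zic5 (lower) each had an H2AK119ub1 and a RING1B peak within 2.5 kb of a start site in untreated Parental cells, and Meg3 (higher) and Tgds (lower) had neither. Each line gives the bases 250 to 31 before the RefSeq start, 5′ to 3′ on the gene's strand (GRCm38.p6), with CG dinucleotides in capitals. The windows are chr11:116110266-116110485 on the minus strand for Trim47, chr14:122465689-122465908 on the minus strand for Zic5, chr12:109540746-109540965 on the plus strand for Meg3 and chr14:118132796-118133015 on the minus strand for Tgds.
Trim47: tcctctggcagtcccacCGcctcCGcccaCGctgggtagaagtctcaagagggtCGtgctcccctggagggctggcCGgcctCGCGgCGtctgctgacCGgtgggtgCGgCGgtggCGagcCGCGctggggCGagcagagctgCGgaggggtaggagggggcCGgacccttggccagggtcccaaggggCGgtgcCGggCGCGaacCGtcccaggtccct
Zic5: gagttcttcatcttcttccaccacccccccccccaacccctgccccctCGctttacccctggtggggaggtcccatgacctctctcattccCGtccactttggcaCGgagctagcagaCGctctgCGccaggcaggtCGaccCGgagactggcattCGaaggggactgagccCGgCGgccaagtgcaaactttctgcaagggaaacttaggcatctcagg
Meg3: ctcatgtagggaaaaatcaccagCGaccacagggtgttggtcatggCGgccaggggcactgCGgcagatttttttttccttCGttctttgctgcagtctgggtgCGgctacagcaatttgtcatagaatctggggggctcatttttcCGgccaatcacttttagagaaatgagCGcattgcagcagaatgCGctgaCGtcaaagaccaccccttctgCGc
Tgds: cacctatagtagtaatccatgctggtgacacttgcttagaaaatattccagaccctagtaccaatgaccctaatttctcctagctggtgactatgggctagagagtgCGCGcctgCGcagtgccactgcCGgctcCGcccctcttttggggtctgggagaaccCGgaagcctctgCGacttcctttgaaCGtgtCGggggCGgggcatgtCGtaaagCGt
The Trim47 window held 22 CG, the Tgds window 12 and the Zic5 and Meg3 windows 10 each. Over all 32851 promoters of the RefSeq table the median was 5 and 90.6% held at least 1. With 1 promoter for each autosomal gene, the median was 12 over 4173 genes with an H2AK119ub1 peak and 5 over 15346 without. A peak was counted at any start site of the gene, which need not be the start of the window. Of the 18 called genes, 10 had an entry in that table.

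The genes with the largest differences belonged to the Dlk1-Dio3 cluster, an imprinted region in which long non-coding RNAs are made from the maternal chromosome and Dlk1, Rtl1 and Dio3 from the paternal one. Meg3, the non-coding RNA at the start of the maternal transcription unit (chr12:109541001-109571726), was at 7.09 and 3.46 CPM in Parental cells and at 180 and 71.6 CPM in I53S cells. The groups were far apart although the I53S libraries differed from each other. The log2 fold change of Meg3 was 4.53 (SE 0.52, edgeR adjusted p = 9.98e-05). Rian, a non-coding host of small nucleolar RNAs, was at 4.07 and 5.19 CPM against 163 and 90.6 CPM, a log2 fold change of 4.79 (SE 0.35, adjusted p = 1.41e-07). Mirg, a host of microRNAs, was at 0.244 and 0.371 CPM against 14.4 and 7.58 CPM, a log2 fold change of 5.17 (SE 0.58, adjusted p = 9.98e-05). All 3 measured genes of the list of maternally expressed cluster genes thus rose.

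Rtl1, a retrotransposon-derived protein-coding gene expressed from the paternal chromosome, was also called higher, but its count was uncertain. It rested on 3 counts over both Parental libraries against 170 in I53S cells, a ratio of 49.4 with a 95% counting interval of 16.6 to 242. The gene overlaps antisense microRNA genes (Mir127, Mir136, Mir431, Mir432 and Mir433), and reads were counted without regard to strand, so those of either strand could not be told apart. Dlk1, a Notch-family ligand, had 0.244 and 0.865 CPM in Parental and 0.386 and 0.576 CPM in I53S cells. Dio3, a thyroid hormone deiodinase, had 0.407 and 0.989 CPM against 0.850 and 0.767 CPM. Neither passed the test (adjusted p = 1 for both), and the groups overlapped for both.

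Between Dlk1 and Dio3 (chr12:109452823-110281097) 12 genes were tested, and 7 were called higher. The remaining called genes were transcripts without a known function: Gm26945 (log2 fold change 3.02), Gm37899 (4.93) and B830012L14Rik (5.18), the last on 2 counts in Parental against 96 in I53S cells, a ratio of 41.8 with a 95% counting interval of 11.3 to 350.3. Gm26945 lies inside Rian on the same strand, and Gm37899 and B830012L14Rik lie on that strand between Rian and Mirg. Whether they are transcripts of their own was not tested. The tested genes that were not called were Dlk1, Mir453, Gm3379, Gm40576 and Dio3.

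The same genes were high in the WT line. Meg3 was at 126 and 89.5 CPM and Rian at 107 and 83.5 CPM in untreated WT cells, inside the range of the I53S libraries for Meg3 and partly inside it for Rian. Against the same Parental libraries, 5 of the 12 genes were called in the WT line, where 0.0458% of all autosomal genes were, and the log2 fold changes were 4.30 for Meg3, 4.37 for Rian and 4.65 for Mirg. The direct comparison of I53S with WT cells, in which 0.0343% of autosomal genes were called, called none of the 12, and the log2 differences were 0.23 (SE 0.42) for Meg3 and 0.42 (SE 0.28) for Rian. In OHT-treated cells, where 0.114% of genes were called between I53S and Parental, the same 7 genes were called higher, with log2 fold changes of 4.51 for Meg3 and 4.79 for Rian. Of the peak lists examined, the Mirg promoter had JARID2 and MTF2 peaks in untreated Parental cells and none in the lists of the WT or I53S line. The WT and I53S lists were shorter, with 7446 and 6563 JARID2 peaks against 14778 in Parental. For MTF2 they held 13559 and 11623 peaks against 24485. The promoters of the other 6 called genes of the cluster had no peak in any list examined. All these lists were of untreated cells, and for the WT and I53S lines they covered only JARID2 and MTF2.

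**Figure D1:**
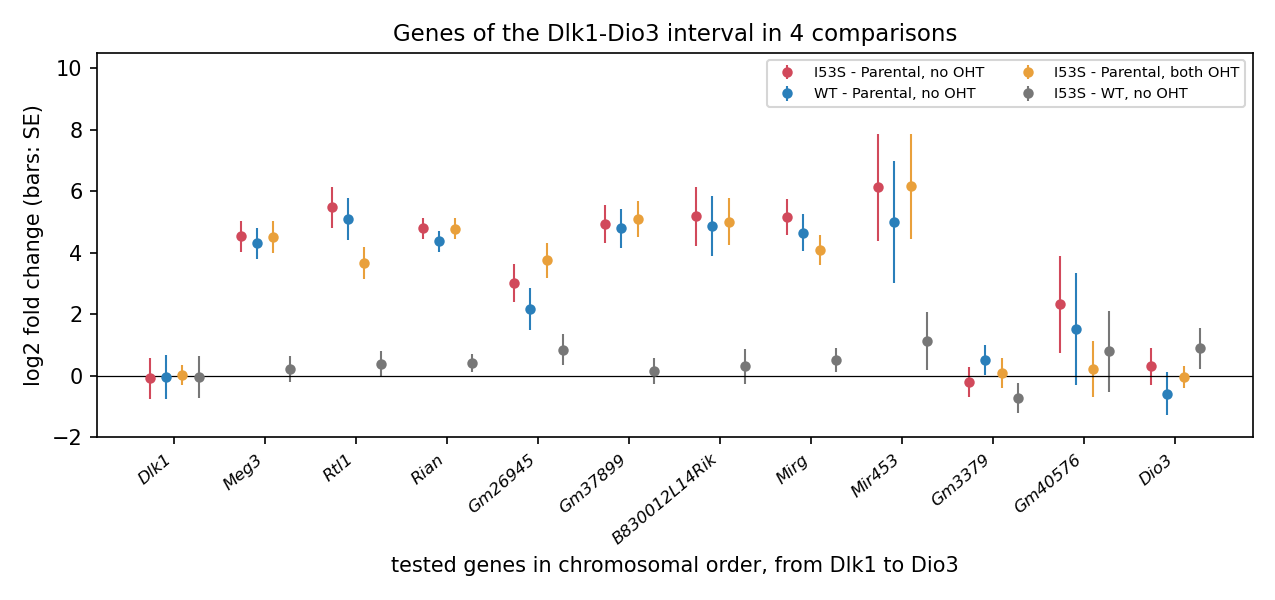
Log2 fold changes (y axis; bars are SE) of the 12 tested genes of the Dlk1-Dio3 interval, in chromosomal order (x axis), for I53S against Parental without OHT, WT against Parental without OHT, I53S against Parental with OHT in both, and I53S against WT without OHT. From Meg3 to Mirg the first 3 comparisons lie above 2 and the I53S against WT points lie between 0 and 1, while Dlk1 and Dio3 were called in none of the 4.

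The second region was distal chromosome 14, where neighbouring genes were lower together. When tested genes were grouped into bins of 10 Mb with at least 20 genes each, 3 of 227 bins had a median log2 fold change of at least 0.4 in size, and all 3 were there. The medians were -0.81 from 70 to 80 Mb (74 genes), -0.79 from 100 to 110 Mb (20 genes) and -0.98 from 120 Mb to the end (23 genes). The medians of the other 224 bins ran from -0.13 to 0.26. The same 3 bins had medians of -0.02, 0.02 and 0.07 for the WT line against Parental, -0.76, -0.81 and -1.04 for I53S against WT, and -0.83, -0.84 and -0.96 for I53S against Parental with OHT in both.

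**Figure D2:**
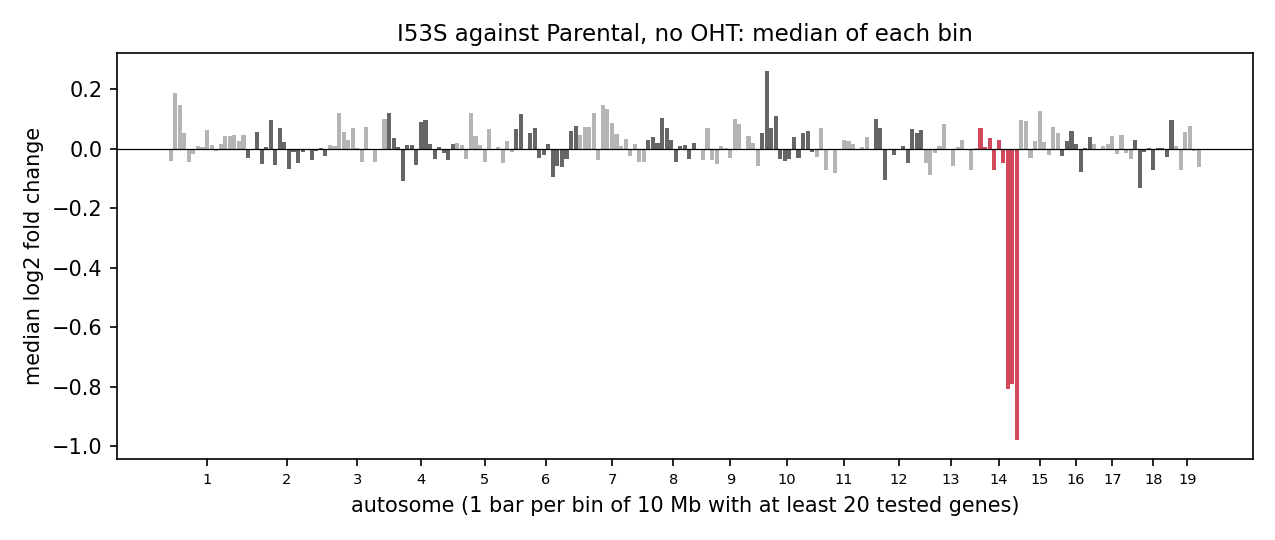
Median log2 fold change of I53S against Parental without OHT (y axis) for each 10 Mb bin with at least 20 tested genes, along the 19 autosomes (x axis), with chromosome 14 in red. The 3 distal bins of chromosome 14 lie between -0.98 and -0.79, and every other bin lies between -0.13 and 0.26.

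The lower values began between Xpo7 (chr14:70654246-70766628, log2 fold change -0.21) and Fndc3a (chr14:72537946-72710003, -1.01), which were adjacent among genes with a mean of at least 5 CPM, and ran to Tmtc4 (chr14:122918971-122984035, -0.97), the last such gene of the chromosome. This boundary was placed after the values were seen, so what follows describes the stretch and does not test it. Of 71 genes with at least 5 CPM, 70 had a negative log2 fold change, with a median of -0.97 and a middle 50% from -1.16 to -0.77. The median corresponded to 0.512 of the Parental level. The exception was Gm10076, at 0.05. In the 297 genes of the same level before the boundary the median was -0.02. Relative to the mean of the Parental libraries of the same treatment, the median level over the 71 genes was 0.506 and 0.521 in the 2 untreated I53S libraries, 0.608 and 0.521 in the OHT-treated I53S libraries and 0.984 and 1.00 in the untreated WT libraries.

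Genes of the stretch with and without Polycomb marks were set side by side. The median log2 fold change was -0.97 for 17 genes of at least 5 CPM with an H2AK119ub1 peak at the promoter and -0.96 for 54 without. Of all 127 tested genes of the stretch, 25 were lower at FDR under 0.05 with no fold threshold, and 6 such genes lay elsewhere on the autosomes. In the comparison with the WT line 20 of the 127 were lower by that criterion, where 0.143% of autosomal genes were, and between OHT-treated I53S and Parental cells 23 were, where 0.189% were.

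**Figure D3:**
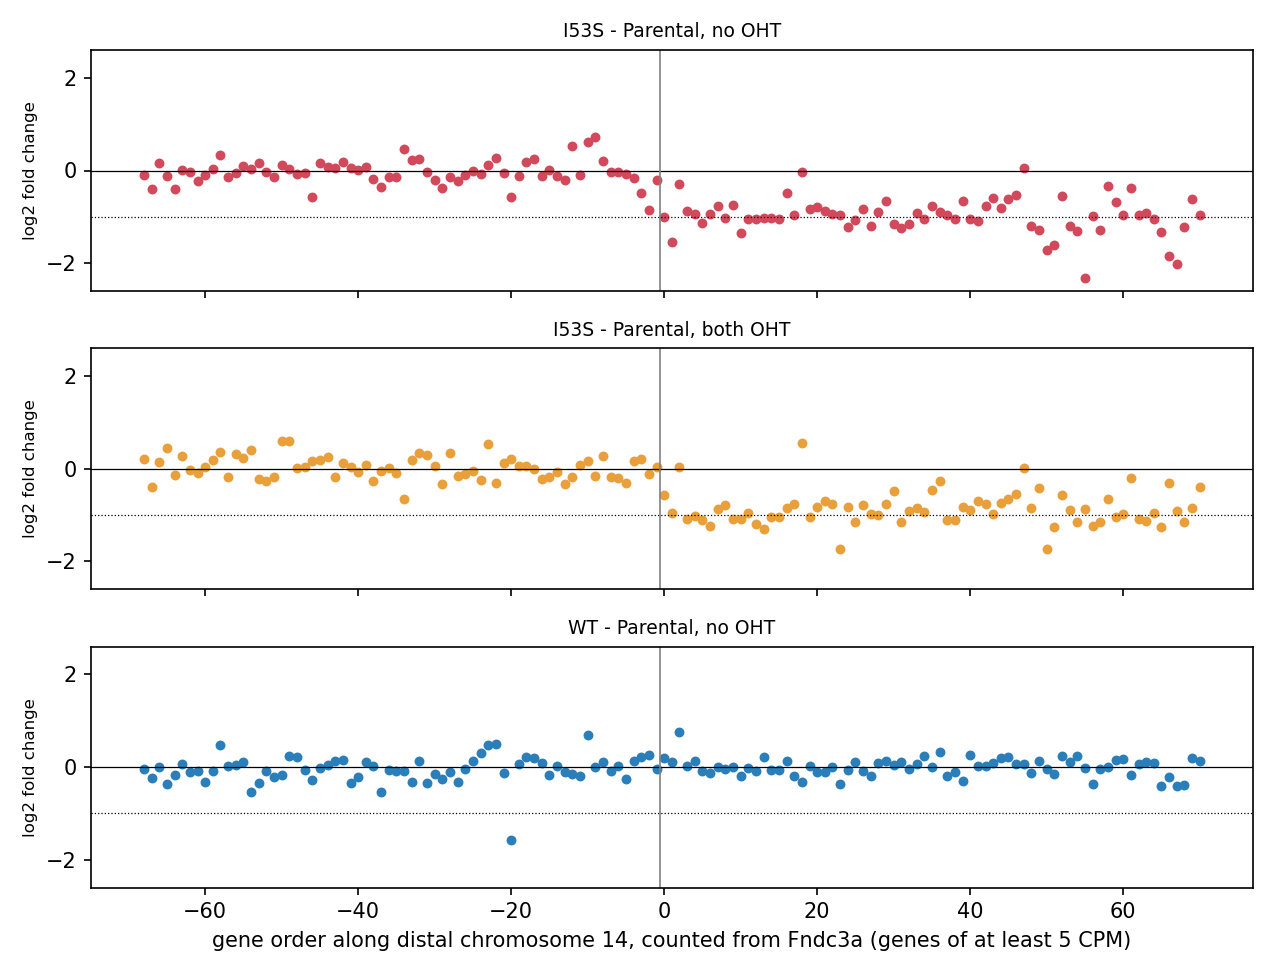
Log2 fold change (y axis) of genes with a mean of at least 5 CPM along distal chromosome 14 in gene order (x axis, counted from Fndc3a, grey line) for 3 comparisons, with dotted lines at -1. To the right of the line the I53S points lie around -1 without OHT and with OHT, and the WT points stay around 0.

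The genes given next were named after their values were seen. Ipo5, a nuclear import receptor, was at 644 and 812 CPM in Parental and 279 and 319 CPM in I53S cells, with no overlap. Tpt1, the translationally controlled tumour protein, was at 285 and 393 CPM against 151 and 175 CPM. Sucla2, a mitochondrial succinyl-CoA synthetase subunit, was at 156 and 201 CPM against 69.2 and 93.8 CPM. Their log2 fold changes of -1.28, -1.06 and -1.13 passed the FDR but not the fold threshold, as did Dnajc3 (-1.31), a co-chaperone of the endoplasmic reticulum, Uchl3 (-1.05), a ubiquitin hydrolase, and Bora (-1.16), an activator of mitotic kinases. Klf5, a pluripotency factor of the same stretch, was at 247 and 215 CPM against 137 and 135 CPM, with a log2 fold change of -0.77 that did not pass (adjusted p = 0.0884).

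The 5 called genes of the stretch were those that also passed the fold threshold. Uggt2, a folding sensor for glycoproteins, was at 10.4 and 16.1 CPM in Parental and 2.24 and 3.07 CPM in I53S cells, and fell by 2.31 on the log2 scale (SE 0.32, edgeR adjusted p = 0.00126). Tgds, a sugar nucleotide dehydratase, was at 44.6 and 52.8 CPM against 12.5 and 17.1 CPM, and fell by 1.72 (SE 0.27, adjusted p = 0.00327). Its neighbour Gpr180 was at 14.6 and 15.1 CPM against 5.02 and 4.70 CPM, and fell by 1.60 (SE 0.29, adjusted p = 0.0133). With OHT in both lines I53S minus Parental was -0.86 for Uggt2 (adjusted p = 0.578), -1.74 for Tgds (0.00323) and -1.25 for Gpr180 (0.0975). The difference between the untreated and treated contrasts was -1.45 for Uggt2 (edgeR unadjusted p = 0.00333), 0.02 for Tgds and -0.35 for Gpr180. None of these differences passed adjustment.

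Zic2 and Zic5, adjacent zinc-finger transcription factors of the neural plate and of the exit from naive pluripotency, completed the 5. Zic2 (chr14:122475435-122479852) was at 23.5 and 30.5 CPM in Parental, 20.2 and 20.1 in WT and 6.88 and 6.43 in I53S cells, a log2 fold change of -2.01 against Parental (SE 0.29, edgeR adjusted p = 0.0014) and -1.60 against WT (adjusted p = 0.0271). Zic5 (chr14:122456795-122465677) was at 31.6 and 32.8, 28.9 and 26.6, and 7.96 and 9.88 CPM in the same order, with log2 fold changes of -1.85 (SE 0.27, adjusted p = 0.00186) and -1.64 (adjusted p = 0.0145). Against WT neither passed the test once any 1 of the 4 libraries was left out (adjusted p from 0.0646 to 0.295). The I53S libraries lay below all 4 others for both genes. With OHT both genes were low in Parental cells as well, Zic5 at 6.40 and 4.87 CPM and Zic2 at 4.44 and 8.19 CPM, and I53S minus Parental was then -0.31 and -0.90. The difference between the untreated and treated contrasts was -1.54 for Zic5 (unadjusted p = 0.00114) and -1.11 for Zic2 (unadjusted p = 0.0178) and did not pass adjustment. No autosomal gene passed it by edgeR: 0 at FDR under 0.05, with 454 at an unadjusted p under 0.05. By DESeq2 0 were called at FDR under 0.05 and a log2 difference of at least 1.5 in size.

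Both Zic promoters had H2AK119ub1, RING1B, PCGF2, CBX7 and SUZ12 peaks in untreated Parental cells. The promoters of Uggt2 and Gpr180 had RING1B and SUZ12 peaks without an H2AK119ub1 peak, and Tgds had none in any list examined.

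**Figure D4:**
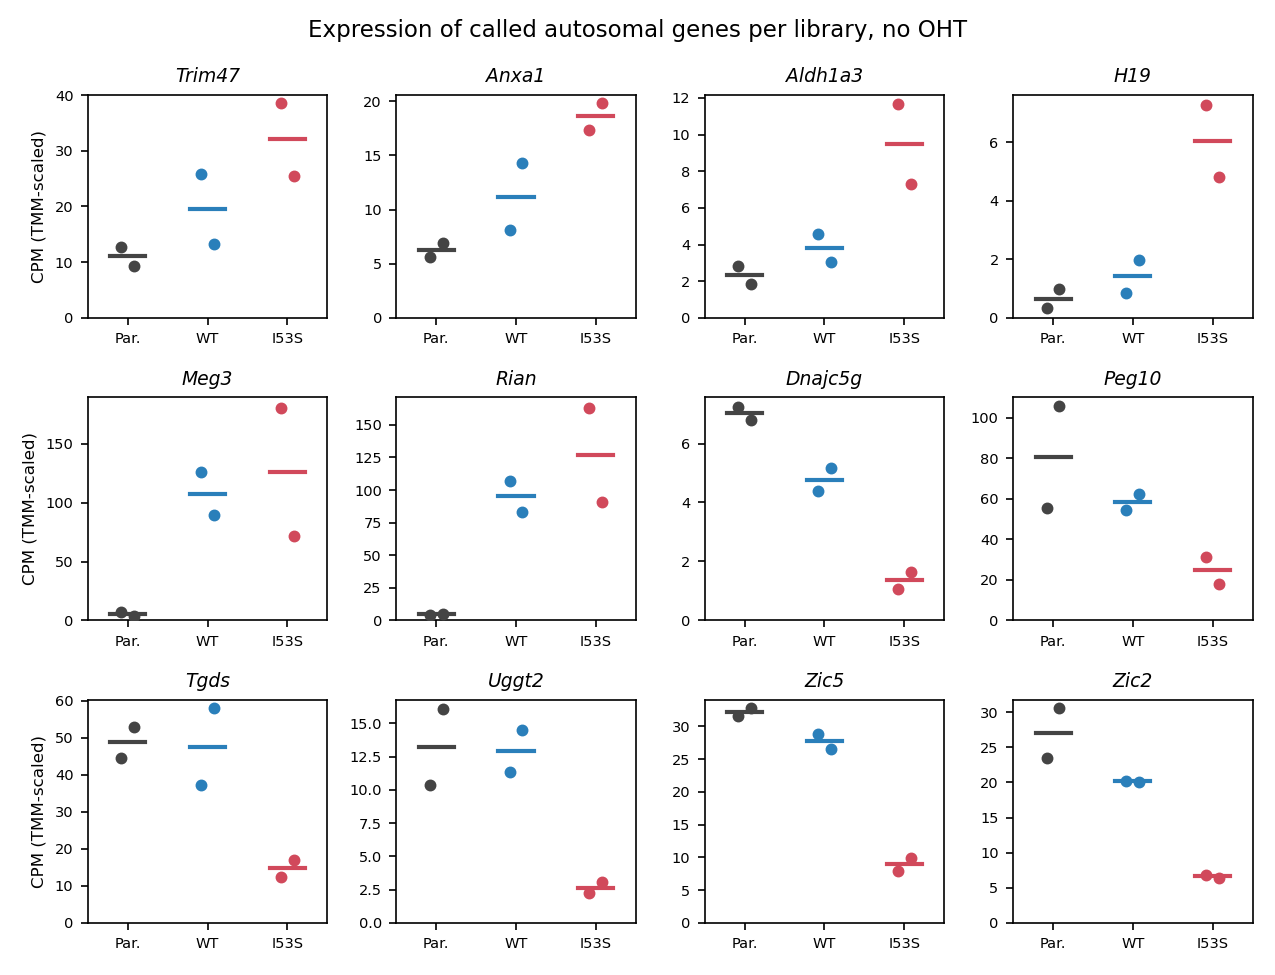
CPM (y axes, from 0) of 12 called genes in the untreated Parental, WT and I53S libraries (x axes); each point is 1 library and each line the mean of 2. For all 12 genes both I53S points lie on one side of both Parental points, and for Meg3 and Rian the WT points lie beside the I53S points.

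Of the called genes outside both regions, Trim47, Aldh1a3 and Peg10 had H2AK119ub1 and RING1B peaks at their promoters in untreated Parental cells. Trim47, a ubiquitin ligase of the tripartite motif family, was at 12.8 and 9.27 CPM in Parental and 38.5 and 25.5 CPM in I53S cells (log2 fold change 1.53, SE 0.29, edgeR adjusted p = 0.0169). Aldh1a3, an enzyme of retinoic acid synthesis, was at 2.85 and 1.85 CPM against 11.7 and 7.29 CPM (1.98, SE 0.36, adjusted p = 0.0125). Anxa1, a calcium-dependent phospholipid-binding protein without such peaks, was at 5.62 and 6.92 CPM against 17.4 and 19.9 CPM (1.58, SE 0.30, adjusted p = 0.0207). For these 3 genes the WT libraries lay between the Parental and I53S ranges or touched them, and the log2 difference of I53S from WT did not pass the test (0.72 for Trim47, 1.31 for Aldh1a3 and 0.73 for Anxa1). With OHT in both lines the differences from Parental were 0.50, 0.24 and 0.18.

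Dnajc5g, a testis-type member of the cysteine string protein family, was at 7.25 and 6.80 CPM in Parental and 1.08 and 1.63 CPM in I53S cells (log2 fold change -2.38, SE 0.47, edgeR adjusted p = 0.0262). It overlaps Slc30a3 on the other strand, so its reads are uncertain. With OHT in both lines the difference was -2.18, which was also called (adjusted p = 0.0427). Untreated WT cells had 4.38 and 5.16 CPM, and I53S minus WT, -1.82, did not pass the test (adjusted p = 0.233).

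Among 30 measured genes of the list of other imprinted genes, H19 was called higher and Peg10 lower, and the median log2 fold change was 0.13 against 0.01 over all autosomal genes. H19, a maternally expressed non-coding RNA, was at 0.326 and 0.989 CPM in Parental and 7.26 and 4.80 CPM in I53S cells. The log2 fold change was 3.30 (SE 0.59, edgeR adjusted p = 0.0119), and 3.10 with OHT in both (adjusted p = 0.0018). Untreated WT cells had 0.856 and 1.97 CPM, and I53S minus WT, 2.09, did not pass the test (adjusted p = 0.158). The H19 promoter had JARID2 and MTF2 peaks in the untreated I53S line and none in the examined lists of untreated Parental or WT cells. The I53S lists were nevertheless the shorter ones (6563 JARID2 peaks against 14778 in Parental and 7446 in WT). Peg10, a paternally expressed retrotransposon-derived gene, was at 55.7 and 106 CPM against 31.4 and 18.2 CPM, a log2 fold change of -1.69 (SE 0.30, adjusted p = 0.0115). With OHT in both lines its difference was -1.25 and was not called (adjusted p = 0.0869). Untreated WT cells had Peg10 at 54.5 and 62.3 CPM, and I53S minus WT, -1.23, did not pass the test (adjusted p = 0.140). Mest, a paternally expressed hydrolase-like gene that overlaps Copg2 on the other strand, was at 84.6 and 89.4 CPM against 199 and 207 CPM, and rose by 1.22 on the log2 scale (SE 0.19, adjusted p = 0.00363) without reaching the fold threshold. Its untreated WT libraries, at 113 and 126 CPM, lay between. Snrpn, a paternally expressed splicing factor gene, had 226 and 180 CPM against 361 and 368 CPM (0.84, adjusted p = 0.0549), and Sgce, the neighbour of Peg10, had 22.6 and 26.8 CPM against 12.9 and 13.0 CPM (-0.92, adjusted p = 0.0935). Slc38a4 and Gab1 had log2 fold changes of -0.06 and 0.12.

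Rnf2 itself was at 198 and 257 CPM in Parental, 256 and 290 in WT and 258 and 282 in I53S cells. Both transgenic lines lay around or above the higher Parental library, the log2 fold change for I53S was 0.24 (SE 0.19, edgeR adjusted p = 1), and the gene table does not separate transgene from endogenous reads. Ring1, deleted in all lines, was at 2.69 and 1.98 CPM against 4.02 and 3.74 CPM (0.72, SE 0.48, adjusted p = 1).

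No gene of the other Polycomb lists was called. Of 11 canonical PRC1 subunits the median log2 fold change was 0.04, and Phc1 and Cbx7 had -0.26 and 0.04. Cbx8, another chromobox subunit, was at 1.47 and 0.865 CPM in Parental and 4.64 and 2.40 CPM in I53S cells (log2 fold change 1.55, SE 0.48, unadjusted p = 0.0045, edgeR adjusted p = 0.399). The 20 variant PRC1 subunits had a median of -0.04, with Csnk2a1 at -0.12 and Usp7 at -0.03, and the 8 H2A deubiquitinase genes a median of 0.03, with Mysm1 at 0.00 and Bap1 at -0.14. The 12 PRC2 subunits had a median of -0.15, 11 being below 0. Their median was 0.01 for I53S against WT and -0.10 for WT against Parental, where 9 were below 0. With OHT in both lines it was 0.05 for I53S against Parental. Jarid2, a PRC2 cofactor, was at 987 and 821 CPM against 708 and 592 CPM (-0.48, unadjusted p = 0.0129, adjusted p = 0.63), and was at 638 and 626 CPM in WT cells.

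Few markers of cell state passed the test. None of the 23 pluripotency factors was called, 19 had a negative log2 fold change, and their median was -0.12. Tfcp2l1 had 0.51 and Tdgf1 -0.55, with adjusted p of 0.49 and 0.579. Of 9 primed and formative genes, Zic2 was the 1 called (lower), and the median was -0.32. Lists with no call were germline (13 genes, median 0.07), trophoblast (9, 0.32), primitive endoderm (14, 0.20), neural (10, -0.01), mesoderm (10, 0.17), Hox (29, 0.00), p53 pathway (15, 0.22), stress response (17, -0.03) and DNA methylation genes (11, -0.07). In these lists Dazl, a germ-cell RNA-binding protein, had -1.26 (adjusted p = 0.196) and Hand1, a trophoblast and mesoderm factor at or under 1.78 CPM, had 2.54 (adjusted p = 0.0669). Dnajc3, from the chromosome 14 stretch, was the only stress response gene under the FDR threshold.

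The 2-cell-like list, genes of a rare state that resembles the 2-cell embryo, had the lowest median of all lists but rested on few counts. Of its 14 genes 6 were tested, and these summed to 12 and 10 counts in untreated Parental, 4 and 16 in WT and 0 and 2 in I53S libraries. Zscan4c, for example, was at 0.326 and 0.247 CPM in Parental and at 0 in both I53S libraries. The median fitted log2 fold change was -2.56 against Parental and -2.45 against WT, and with genes at 0 counts set to their bound, or left out where the other group had 3 counts or fewer, it was -1.41 and -1.92. With OHT in both lines the 6 genes summed to 156 and 107 counts in Parental and to 4 and 16 counts in I53S cells, with a median of -3.61 and all 6 negative. The OHT-treated WT libraries held 6 and 7 counts. No gene of the list was called in any of the 4 comparisons. Several of its members, such as the Zscan4 genes, are near-identical copies within a family. The authors did not keep reads that mapped to more than 1 place, so the counts of such genes are uncertain.

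Genes with PRC1 at the promoter were compared with the rest as classes. Over 4674 autosomal genes with an H2AK119ub1 peak in untreated Parental cells the median log2 fold change of I53S against Parental was 0.07, and over 12812 without it was -0.01. Over 3523 genes with a RING1B peak it was 0.11, and over 13963 without it was -0.01. Genes at unadjusted p under 0.05 were 6.95% higher and 2.75% lower among the RING1B class, against 3.13% and 1.94% of all autosomal genes. Of that class, 2 genes were called higher and 5 lower, where 0.0629% and 0.0400% of all genes were. Of those 5, Uggt2, Gpr180, Zic5 and Zic2 lie in the chromosome 14 stretch. Genes of that stretch were split by H2AK119ub1 peak and not by RING1B peak.

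The shift was smaller than the difference between replicates of a line. As the median log2 CPM relative to the mean of the 6 untreated libraries of the 3 lines, the H2AK119ub1 class stood at 0.05 and -0.08 in Parental, 0.07 and -0.13 in WT and 0.18 and -0.05 in I53S cells. The second I53S library lay inside the Parental range. In all 3 lines the first library was the higher one, and between libraries of the same number I53S minus Parental was 0.132 and 0.0276. Without the first I53S library the median log2 fold change was -0.06 for the H2AK119ub1 class and -0.02 for the RING1B class.

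The 2613 autosomal genes called higher with OHT in Parental cells, that is, after removal of RING1B, were examined in the same way. Their median log2 fold change was 0.31 for untreated I53S against Parental, and 0.36 for untreated I53S against WT. For WT against Parental it was 0.00 and for OHT-treated I53S against OHT-treated Parental -0.15. Over the 1175 of these genes with a mean of at least 1 CPM in the untreated Parental and I53S libraries, the medians were 0.27, 0.41, -0.10 and -0.11 in the same order. For the 2613 genes, only I53S against WT of these 4 comparisons uses no library that chose them. The untreated Parental libraries enter the first and the third, and the OHT-treated ones the last. The 1175 genes were chosen in addition by their level in the untreated Parental and I53S libraries, but not in the WT ones. For them the median of I53S against WT therefore also uses libraries that chose the genes. In a further calculation over the whole class, genes at 0 counts in a group were set to the bound that 3 counts give. Those with 3 counts or fewer in the other group were left out, 212 genes against Parental and 199 against WT. The medians of untreated I53S against Parental and against WT were then 0.31 and 0.37. By library the level was 0.02 and -0.17 in Parental, 0.08 and -0.24 in WT and 0.32 and 0.01 in I53S cells, so replicates of a line differed by 0.18 to 0.32 and the second I53S library fell inside the range of the other lines. Between libraries of the same number the level in I53S cells was higher in each case, by 0.303 and 0.182 against Parental and by 0.243 and 0.255 against WT. Without the first I53S library the 2 medians were 0.00 against Parental and 0.05 against WT.

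**Figure D5:**
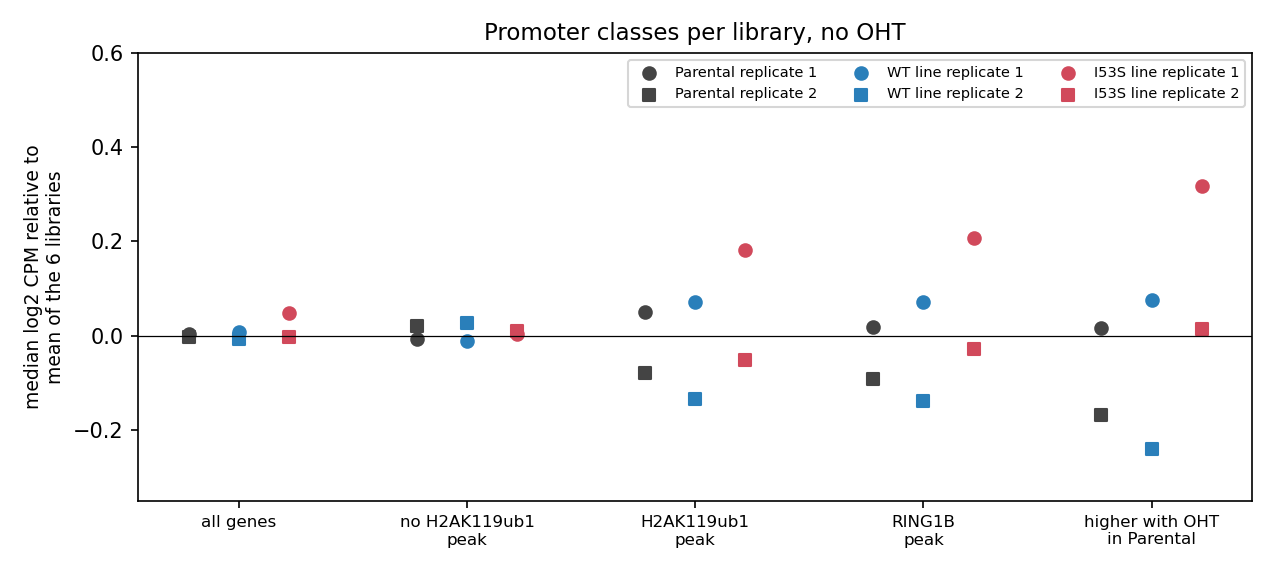
Median log2 CPM relative to the mean of the 6 untreated libraries (y axis) over all tested autosomal genes and 4 classes of genes (x axis); each point is 1 library, circles replicate 1 and squares replicate 2. The first I53S library is the highest in the H2AK119ub1, RING1B and OHT-responsive classes, and the second lies within the range of the Parental and WT libraries.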

How the data were processed

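Mouse embryonic stem cells were sequenced as SMART-seq2 RNA libraries. Per the labels and the study's methods, the authors aligned reads to GRCm38 (mm10) with STAR 2.7 and deposited counts per gene made with featureCounts, without regard to strand, and GENCODE M21. The table held all 16 RNA libraries, 4 of which (Eed line) were not used. The authors deposited peak lists, called in each library separately against input with MACS2 2.1.1 on Bowtie 1.2.2 alignments without duplicates, and their deposited score is the −log10 p-value of a peak, at least 10 in the lists used. Tables of the authors' normalized values and own comparisons, which hold fold changes and p-values, were not used.

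Counts of 12 libraries (Parental, WT and I53S, each without and with OHT, 2 replicates a group) were filtered with filterByExpr, which left 18154 genes, scaled with TMM (factors 0.903 to 1.15) and fitted in R 4.3.3 with edgeR 4.0.16 (quasi-likelihood, 1 group term, Benjamini-Hochberg adjustment over all 18154). DESeq2 1.42.0 was an alternative. CPM are TMM-scaled, SE is the log2 fold change over the square root of F, and the common biological coefficient of variation was 0.181. Scripts were tested on simulated data. A gene was assigned a peak when one lay within 2.5 kb of any annotated start site, and 31 autosomal names covered more than 1 gene model. Every called gene was named, with called members of each list and a few more. The members and lists were chosen with earlier results of these data known. Intervals and floors (3 counts over a group) cover counting error only.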

Additional observations from a re-analysis of the deposited data

Results flagged for a closer look

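Differences from Parental cells that were not the same in the I53S and WT lines, by the direct test of I53S against WT without OHT, were found for 5 of the 18 called genes, all on distal chromosome 14. The log2 difference of I53S from WT was -1.69 for Tgds (edgeR adjusted p = 0.0107), -1.46 for Gpr180 (0.0493), -2.29 for Uggt2 (0.0034), -1.64 for Zic5 (0.0145) and -1.60 for Zic2 (0.0271), and both I53S libraries lay below both WT libraries for each gene. All 5 lost significance without the second WT library (adjusted p from 0.0629 to 0.351) or without the first I53S library (0.199 to 0.374), with log2 differences of -2.08 to -1.31 and -2.07 to -1.48. On the sex chromosomes, which the report's comparisons do not use, 10 genes were called between I53S and Parental cells, 6 on X and 4 on Y. Among them Eif2s3y was higher by 4.36 (adjusted p = 3.99e-09) and Usp26 had a log2 fold change of -2.75 (adjusted p = 0.000264).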

How the results depend on the processing

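Counts of called autosomal genes were 18 for I53S against Parental without OHT, 6 for I53S against WT, 8 for WT against Parental and 20 for I53S against Parental with OHT. With no filter on low counts they were 40, 21, 22 and 38, and with at least 10 counts in every library 11, 5, 5 and 7, from fewer genes tested. With no fold threshold they were 45, 26, 8 and 46, and with a log2 fold change of at least 1 they were 38, 23, 8 and 42. DESeq2 gave 27, 12, 12 and 19, and for I53S against WT the cause of the larger count was not tested. RLE size factors gave the same 4 counts. With the 5 genes of distal chromosome 14 left out, an alternative chosen after seeing the data, 13 remained called.

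With the replicate number as a block (replicate block) the counts were 21, 9, 10 and 23. Same-numbered untreated libraries deviated together across genes (r = 0.23 for Parental and WT, 0.24 for Parental and I53S and 0.30 for WT and I53S), a hint of pairing from the data, since the labels tie the numbers to no shared culture or day.

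Leaving out 1 library at a time gave 7 to 16 calls for I53S against Parental, the 7 without the first I53S library being all among the 18. It gave 0 to 8 for I53S against WT (0 without the first I53S or the second WT library), 7 to 10 for WT against Parental and 6 to 31 with OHT (6 without the first Parental or the first I53S library, 31 without the second I53S library). It moved the medians of the 3 bins of chromosome 14 between -0.81 and -0.73, -0.91 and -0.68, and -1.18 and -0.94. The promoter classes ran from -0.06 to 0.18 for H2AK119ub1 and from -0.02 to 0.23 for RING1B, both lowest without the first I53S library. The genes higher with OHT ran from 0 to 0.55 against Parental and from 0.0528 to 0.67 against WT. For I53S against Parental, none of the 18 called genes changed direction with DESeq2, RLE size factors, the replicate block or without any 1 of the 4 libraries, and the other named genes were not run under these settings. The depth of these libraries limits genes under 1 CPM, such as the 2-cell-like list.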
